A study of Mus musculus with 6 samples.

Results

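The genes described here are 8 regulators of the hypoxia-inducible factors (HIFs) and 27 HIF targets outside glycolysis, 35 of the 19733 genes tested, in BCR-ABL1-transformed mouse pre-B cells with and without Cre-mediated loss of PP2A. They were taken by name, and the choice was made with earlier results of these data known. Each is represented by a probe set annotated to that gene alone, or, where there were several, by the one with the highest mean over the 6 arrays. All 35 were measured. The regulators were set against the targets, and the change was Cre minus empty vector.

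HIFs are dimers of an oxygen-labile alpha subunit, HIF-1alpha (Hif1a) or HIF-2alpha (Epas1), and the stable partner ARNT. In oxygen the prolyl hydroxylases of the Egln genes mark the alpha subunit, the VHL ubiquitin ligase binds the mark and the subunit is degraded, while FIH (Hif1an) blocks its transactivation domain. This control acts on the protein, so transcript levels of the regulators do not report HIF activity, except that Egln1 and Egln3 are also HIF targets. HIF binds the short core sequences ACGTG and GCGTG in its target genes, which serve glycolysis, mitophagy, collagen modification, glycogen storage, growth of vessels and feedback on HIF itself, and bone marrow is a tissue of low oxygen.

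Both groups were bone marrow pre-B cells of Ppp2r1a fl/fl mice that carried BCR-ABL1, the fusion kinase of acute lymphoblastic leukaemia. They received either an empty vector (EV, 3 arrays, labelled wild type) or Cre, which removes floxed Ppp2r1a, the gene for the scaffold subunit of PP2A (3 arrays). Cells without floxed alleles that received Cre are not among the 6 arrays, so an effect of Cre itself cannot be told apart from loss of the gene. The vector's promoter, the age of the mice, the time after transduction, any selection and the oxygen in culture are not stated in the labels. The arrays are numbered repeats that no label ties to separate cultures or mice, and the tests below may therefore reflect technical spread alone. Values are log2 expression levels, 1 unit being a doubling.

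Ppp2r1a read 9.06, 9.05 and 9.06 in EV and 7.12, 6.98 and 6.92 in Cre, a change of -2.05 (limma adjusted p = 1.2e-05), with no overlap of the groups. Across genes, the lowest correlation between 2 arrays of a group (r = 0.9955) exceeded the highest between the groups (0.9923). The 12 measured B lineage markers read 7.45 to 12.46 on the EV arrays, all above the array medians of 5.21 to 5.27, and the 38 measured markers of T, myeloid, erythroid, NK, stromal, mast cell and platelet lineages had a median level of 4.06 over the 6 arrays. Probe sets differ in affinity, so these levels are a description and not a comparison of amounts. Of the 12 B lineage markers 3 fell in Cre at a limma adjusted p below 0.05, beside 2.14% of all genes. They were Rag1 (-2.09), Rag2 (-1.84) and Dntt (-0.48), which serve V(D)J recombination. In limma 0 of the 38 other markers passed an adjusted p below 0.05, beside 3.49% of all genes, and 5 had an unadjusted p below 0.05, beside 16.1%. The summed log2 level of the 38 was 154.9 to 158.4 in EV and 156.8 to 158.6 in Cre. In bulk RNA, fewer cells of a kind and less RNA per cell cannot be told apart.

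In the Cre cells 10 of the 27 targets fell and 0 rose, while 0 of the 8 regulators passed in either direction. A gene was called changed at a limma adjusted p below 0.05, with the Benjamini-Hochberg adjustment over all 19733 genes. Of all genes 3.49% passed: 2.14% fell and 1.35% rose. Because the members were chosen with earlier results of these data known, their distance from these shares is a description. When the lowest 50% of genes by mean level were left out, 11 of the 21 remaining targets fell, beside 7.68% of all remaining genes. At an unadjusted p below 0.05, 14 targets were lower and 1 was higher, and of the regulators 1 was lower and 3 were higher, beside 9.02% of all genes lower and 7.1% higher. The median change was -0.25 for the targets and 0.09 for the regulators, beside -0.003 for all genes. The regulators' median was 0.026 without Cre repeat 1, 0.049 without EV repeat 3 and 0.14 without Cre repeat 2 or EV repeat 2. The median was -0.09 over the 17 targets with no call. Counting the hydroxylase genes Egln1 and Egln3, which are HIF targets too, among the targets left both medians as they were.

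**Figure D1:**
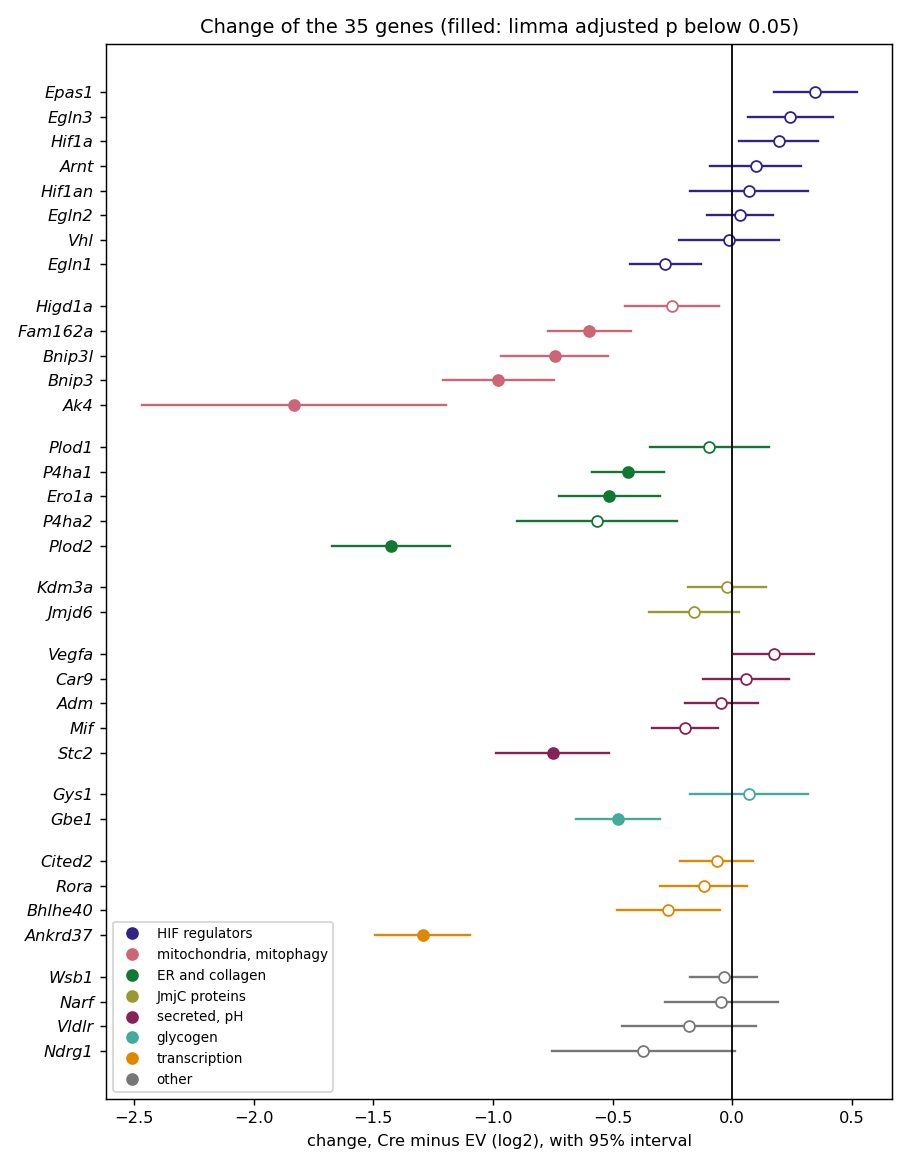
Change of each of the 35 genes, Cre minus EV on the log2 scale (horizontal axis), ordered by role, with the unadjusted 95% interval of the moderated limma fit; filled points passed an adjusted p below 0.05. All 10 filled points lie left of 0 and belong to targets, from Ak4 at -1.83 to P4ha1 at -0.44, and the 8 regulators lie between -0.28 and 0.35.

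For 20 of the 35 genes the groups did not overlap, beside 22.5% of all genes. For 15 of the 27 targets all 3 Cre arrays read below all 3 EV arrays (12.2% of all genes), and for 1, Vegfa, all read above (10.3% of all genes). Of the regulators, Egln1 was lower on every Cre array, and Hif1a, Epas1 and Egln3 were higher on every Cre array.

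Promoters of the fallen targets are shown first, because HIF acts through short core sequences that can be looked for by letter. Windows of 250 bases before to 50 after the transcription start (RefSeq, GRCm38.p6) were available for 30 of the 35 genes. Epas1, Bnip3l, Plod2, Bhlhe40 and Ndrg1 were not in the table. The 4 targets with the deepest falls among those with a window are printed 5′ to 3′ on the gene's strand, and the capitals mark ACGTG and GCGTG and their reverse complements CACGT and CACGC. The palindrome CACGTG counts as a match on each strand, and neighbouring matches can share letters. Ak4 has 4 windows in the table, and the first is given.
Ak4: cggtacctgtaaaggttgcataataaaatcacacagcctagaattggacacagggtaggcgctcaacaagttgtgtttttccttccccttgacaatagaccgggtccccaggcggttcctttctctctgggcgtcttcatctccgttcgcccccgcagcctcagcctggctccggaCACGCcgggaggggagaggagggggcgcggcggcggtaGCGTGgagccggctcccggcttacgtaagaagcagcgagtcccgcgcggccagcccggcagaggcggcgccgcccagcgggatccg
Ankrd37: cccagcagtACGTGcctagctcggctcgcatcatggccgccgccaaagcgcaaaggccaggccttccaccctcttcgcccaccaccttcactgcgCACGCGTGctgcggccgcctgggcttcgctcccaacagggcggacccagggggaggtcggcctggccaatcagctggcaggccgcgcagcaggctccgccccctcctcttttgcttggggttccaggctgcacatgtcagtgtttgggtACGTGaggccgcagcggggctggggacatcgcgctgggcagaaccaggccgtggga
Bnip3: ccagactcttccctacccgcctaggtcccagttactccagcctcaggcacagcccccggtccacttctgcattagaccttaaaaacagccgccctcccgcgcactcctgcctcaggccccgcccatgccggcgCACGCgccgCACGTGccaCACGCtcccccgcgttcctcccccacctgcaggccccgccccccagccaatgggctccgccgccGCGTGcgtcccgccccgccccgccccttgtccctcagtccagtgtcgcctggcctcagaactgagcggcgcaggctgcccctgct
Stc2: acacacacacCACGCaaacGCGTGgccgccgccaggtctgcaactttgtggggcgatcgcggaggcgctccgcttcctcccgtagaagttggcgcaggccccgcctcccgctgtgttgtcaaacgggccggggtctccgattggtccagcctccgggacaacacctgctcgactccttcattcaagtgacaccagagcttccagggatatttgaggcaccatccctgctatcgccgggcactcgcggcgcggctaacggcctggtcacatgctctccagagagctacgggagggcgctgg

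The printed Ak4 window (chr4:101419039-101419338, plus strand) held 2 matches of GCGTG and 0 of ACGTG. Window 4 of Ak4 (chr4:101419453-101419752), which is not printed, held 1 of GCGTG and 2 of ACGTG. The Ankrd37 window (chr8:45999801-46000100, minus strand) held 2 of each. Bnip3 (chr7:138909457-138909756, minus strand) had 2 matches of ACGTG, both in 1 palindrome, and 3 of GCGTG. Stc2 (chr11:31370012-31370311, minus strand) had 2 of GCGTG, 1 on each strand. All 4 printed windows thus carried a core, but so did most windows of the members whatever they did.

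Taking the first window of each gene, 7 of the 8 fallen targets with a window held ACGTG or GCGTG. The exception was Gbe1. Of the 15 other targets with a window 12 held one, and of the 7 regulators 5. Among all 15476 tested genes with a window the share was 52.1%, with 21.8% for ACGTG and 41.2% for GCGTG. The members' windows were also richer in CpG: the median count was 25, beside 15 for all tested genes, and both motifs contain a CpG. Whether CpG content accounts for the larger share was not tested, and a match is no evidence of binding.

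Among the alpha subunits, Hif1a read 8.13, 7.98 and 8.16 in EV and 8.32, 8.26 and 8.27 in Cre. The change was 0.20 (SE 0.071; adjusted p = 0.228) in limma, with an unadjusted 95% interval of 0.029 to 0.36. The groups did not overlap, yet the gene missed the threshold over all genes. Epas1 read 3.63, 3.73 and 3.82 in EV and 4.04, 4.15 and 4.02 in Cre, all below the array medians of 5.21 to 5.27, so its level rests on a dim probe set. Its change of 0.35 (SE 0.075; adjusted p = 0.0514) lay just outside the threshold, and with each array centred on its median the adjusted p was 0.0491. Arnt, the shared partner, read 7.47, 7.56 and 7.45 in EV and 7.73, 7.49 and 7.55 in Cre and differed by 0.099 (SE 0.082; adjusted p = 0.631), with overlapping groups. No call was made for any of the HIF subunits, and the positive sign of all 3 is a description.

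The oxygen sensors differed in sign from one another. Egln1 (PHD2), the main hydroxylase of HIF-1alpha in most cells, read 9.13, 9.08 and 9.19 in EV and 8.83, 8.83 and 8.91 in Cre, with every Cre array lower. The change of -0.28 (SE 0.065; adjusted p = 0.0678) was not called, whereas it was with the lowest 25% or 50% of genes left out or with the trend and robust settings of eBayes (adjusted p = 0.0361, 0.0132 and 0.00229). Egln2 (PHD1), which is not a typical HIF target, read 7.05, 7.09 and 7.02 in EV and 7.10, 7.08 and 7.08 in Cre and differed by 0.032 (SE 0.059; adjusted p = 0.858). Egln3 (PHD3), which is commonly hypoxia-induced, was dim and read 3.43, 3.63 and 3.57 in EV and 3.80, 3.84 and 3.72 in Cre, higher on every Cre array. Its change was 0.24 (SE 0.077; adjusted p = 0.162), in the direction opposite to Egln1.

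The other brakes on HIF showed little difference. Vhl, the substrate receptor of the ubiquitin ligase, read 6.89, 6.88 and 6.85 in EV and 6.94, 6.97 and 6.67 in Cre, with a change of -0.014 (SE 0.091; adjusted p = 0.966) and an interval of -0.22 to 0.20. Cre repeat 3 was the lowest of its 6 values and Cre repeat 2 the highest, and without Cre repeat 3 the change was 0.08. Hif1an, the asparaginyl hydroxylase FIH, read 5.74, 6.05 and 5.74 in EV and 6.04, 5.80 and 5.91 in Cre and differed by 0.071 (SE 0.11; adjusted p = 0.816). For Arnt, Hif1an, Vhl and Egln2 the unadjusted interval spans 0 and reaches at most 0.32 from it, less than the smallest called fall of a target (-0.44, P4ha1).

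**Figure D2:**
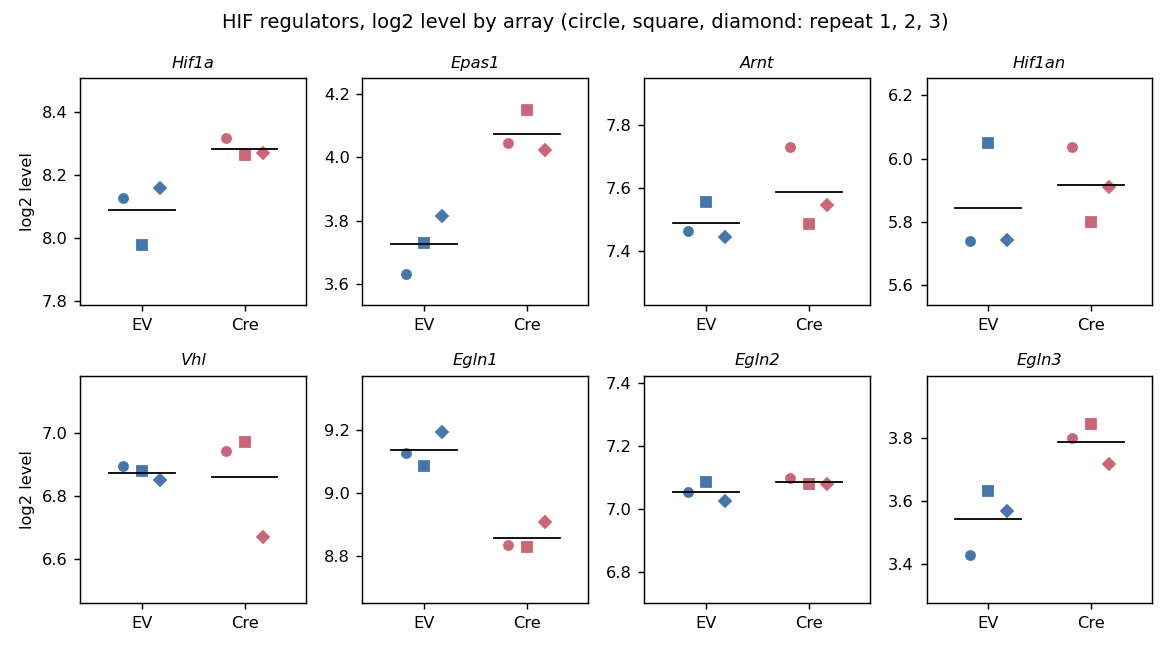
Log2 level of the 8 HIF regulators on each array (vertical axis, the same span in every panel), with EV in blue, Cre in red and a bar at the group mean of 3 arrays. The groups do not overlap for Hif1a, Epas1 and Egln3, where Cre is higher, or for Egln1, where Cre is lower, and they overlap for Arnt, Hif1an, Vhl and Egln2.

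Genes of mitochondria and mitophagy held the largest share of calls: 4 of 5 fell. Ak4, a mitochondrial adenylate kinase, fell 3.56-fold and read 6.76, 6.53 and 6.51 in EV and 5.47, 4.54 and 4.28 in Cre. Its Cre arrays spread widely (4.77 ± 0.63, SD, n = 3, beside 6.60 ± 0.14 in EV), and the change was -1.83 (SE 0.27; adjusted p = 0.0122) in limma. The call was lost without Cre repeat 2 or EV repeat 1 (adjusted p 0.0542 and 0.0545). Bnip3, a receptor that targets mitochondria to autophagy, fell 1.97-fold and read 10.58, 10.53 and 10.55 in EV and 9.72, 9.65 and 9.35 in Cre (-0.98 (SE 0.10; adjusted p = 0.00225)). Its relative Bnip3l (NIX), which clears mitochondria from maturing red cells, fell 1.67-fold and read 10.54, 10.48 and 10.43 in EV and 9.94, 9.68 and 9.60 in Cre (-0.74 (SE 0.097; adjusted p = 0.00644)).

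The small mitochondrial protein Fam162a, linked to cell death in hypoxia, fell 1.51-fold. It read 10.33, 10.37 and 10.45 in EV and 9.88, 9.80 and 9.68 in Cre, a change of -0.60 (SE 0.075; adjusted p = 0.00557). Higd1a, which binds the respiratory chain, read 10.48, 10.49 and 10.53 in EV and 10.29, 10.37 and 10.09 in Cre and differed by -0.25 (SE 0.084; adjusted p = 0.188). Its Cre arrays lay below its EV arrays, and it did not pass, although with the trend and robust settings of eBayes its adjusted p was 0.0162. Bnip3, Bnip3l and Fam162a kept the call whichever of the 6 arrays was omitted.

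Collagen-modifying and disulphide-forming enzymes of the endoplasmic reticulum came next, with 3 of 5 fallen. Plod2, the lysyl hydroxylase of collagen telopeptides, fell 2.69-fold and read 8.117, 8.002 and 8.033 in EV and 6.860, 6.518 and 6.494 in Cre. With a change of -1.43 (SE 0.11; adjusted p = 0.00046) in limma it was the deepest fall after Ak4, or the deepest where Ak4 is read from its other probe set (-1.29), and it stood whichever of the 6 arrays was omitted. Its paralogue Plod1 was dim and read 4.98, 5.01 and 4.94 in EV and 4.90, 4.66 and 5.08 in Cre. It differed by -0.095 (SE 0.11; adjusted p = 0.743), with overlapping groups. The 95% intervals of the 2 changes, -1.67 to -1.18 and -0.34 to 0.15, do not meet, although the difference between them was not tested.

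P4ha1, a catalytic subunit of collagen prolyl 4-hydroxylase, fell 1.35-fold and read 7.08, 7.03 and 7.13 in EV and 6.65, 6.69 and 6.59 in Cre (-0.44 (SE 0.065; adjusted p = 0.0118)). Its highest adjusted p with 1 array left out was 0.04997, without Cre repeat 3. P4ha2, the alternative subunit, was dim at 4.87, 4.80 and 4.42 in EV and 3.90, 4.23 and 4.26 in Cre. Its change of -0.56 (SE 0.14; adjusted p = 0.0919) was larger than that of P4ha1 but did not pass, with an SE more than double. P4ha2 was called without EV repeat 3 (adjusted p = 0.0433) or with the trend and robust settings of eBayes (0.0245). Ero1a, the oxidase that recharges protein disulphide isomerase, fell 1.43-fold and read 8.24, 8.28 and 8.17 in EV and 7.71, 7.88 and 7.56 in Cre (-0.51 (SE 0.091; adjusted p = 0.0249)). With 1 array left out, Ero1a lost its call most often of the 10: without Cre repeat 1, Cre repeat 3, or any 1 EV repeat, with a highest adjusted p of 0.0911.

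Of the transcriptional and nuclear targets 1 of 4 fell. Ankrd37, an ankyrin repeat protein with a strongly HIF-dependent promoter, fell 2.45-fold. It read 7.75, 7.84 and 7.92 in EV and 6.69, 6.49 and 6.45 in Cre, and its change of -1.29 (SE 0.086; adjusted p = 0.000265) had the smallest p-value of the 35 genes. Bhlhe40 (DEC1), a repressor, read 6.45, 6.41 and 6.65 in EV and 6.21, 6.13 and 6.37 in Cre and differed by -0.27 (SE 0.092; adjusted p = 0.201), with every Cre array lower. Cited2, which competes with HIF for the coactivators p300 and CBP, read 10.10, 10.11 and 10.19 in EV and 10.05, 10.02 and 10.12 in Cre (-0.065 (SE 0.065; adjusted p = 0.703)). The nuclear receptor Rora was dim and differed by -0.12 (SE 0.079; adjusted p = 0.533). Both Cited2 and Rora had overlapping groups.

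Secreted proteins and the pH enzyme did not move as a group, and 1 of 5 fell. Stc2, a glycoprotein hormone, fell 1.68-fold and read 7.08, 6.87 and 6.95 in EV and 6.22, 6.05 and 6.39 in Cre (-0.75 (SE 0.10; adjusted p = 0.00791)), a call kept whichever of the 6 arrays was omitted. Vegfa, the angiogenic factor and the textbook HIF target, read 9.20, 9.05 and 9.03 in EV and 9.24, 9.25 and 9.31 in Cre. It differed by 0.18 (SE 0.072; adjusted p = 0.289), with every Cre array higher, and was the 1 target without overlap in that direction. Mif, a cytokine, read 12.87, 12.93 and 12.87 in EV and 12.69, 12.71 and 12.68 in Cre. Its change of -0.20 (SE 0.060; adjusted p = 0.145) was small and not called, although the groups were apart, and with the trend and robust settings of eBayes its adjusted p was 0.000227.

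Adm, adrenomedullin, and Car9, the carbonic anhydrase CAIX, are induced strongly by hypoxia in many cells. Both read below the array medians here. Adm read 4.52, 4.50 and 4.62 in EV and 4.51, 4.53 and 4.46 in Cre and Car9 4.27, 4.47 and 4.50 in EV and 4.47, 4.47 and 4.47 in Cre. The 3 Cre values of Car9 were identical to 3 decimals, which was true of 1 of 21467 probe sets with a single gene. Neither gene differed beyond its spread (-0.045, SE 0.065, and 0.058, SE 0.078). Whether probe sets this dim could show a fall was not tested. Another carbonic anhydrase, Car12, was called, with a change of -0.95. It started from higher levels than Adm and Car9, at 5.24, 5.20 and 4.93 in EV.

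The 2 glycogen genes parted. Gbe1, the branching enzyme, fell 1.39-fold and read 7.27, 7.30 and 7.21 in EV and 6.83, 6.86 and 6.66 in Cre (-0.48 (SE 0.076; adjusted p = 0.0158)), and the call was lost without EV repeat 1 or EV repeat 2 (adjusted p 0.0637 and 0.0638). Gys1, the synthase that elongates the chain, read 6.33, 6.41 and 6.18 in EV and 6.47, 6.49 and 6.17 in Cre and differed by 0.072 (SE 0.11; adjusted p = 0.812). Their 95% intervals were -0.65 to -0.30 and -0.17 to 0.32. The difference between the genes was not tested.

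Kdm3a, a histone H3 lysine 9 demethylase, and Jmjd6, both proteins with a JmjC domain, gave no call. Kdm3a read 7.66, 7.62 and 7.71 in EV and 7.71, 7.68 and 7.54 in Cre and differed by -0.022 (SE 0.071; adjusted p = 0.923), and Jmjd6 differed by -0.16 (SE 0.081; adjusted p = 0.408). The remaining targets also failed to pass. Ndrg1, a stress-response gene, read 6.05, 5.70 and 5.70 in EV and 5.63, 5.62 and 5.09 in Cre, with a change of -0.37 (SE 0.16; adjusted p = 0.326) and groups that did not overlap. Cre repeat 3 was its lowest array, and without it the change was -0.19. Wsb1, a ubiquitin ligase subunit, differed by -0.034 (SE 0.060), the nuclear protein gene Narf by -0.045 (SE 0.10) and the lipoprotein receptor Vldlr by -0.18 (SE 0.12; -0.083 without EV repeat 1). The interval for Wsb1, -0.17 to 0.11, was the narrowest of these.

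**Figure D3:**
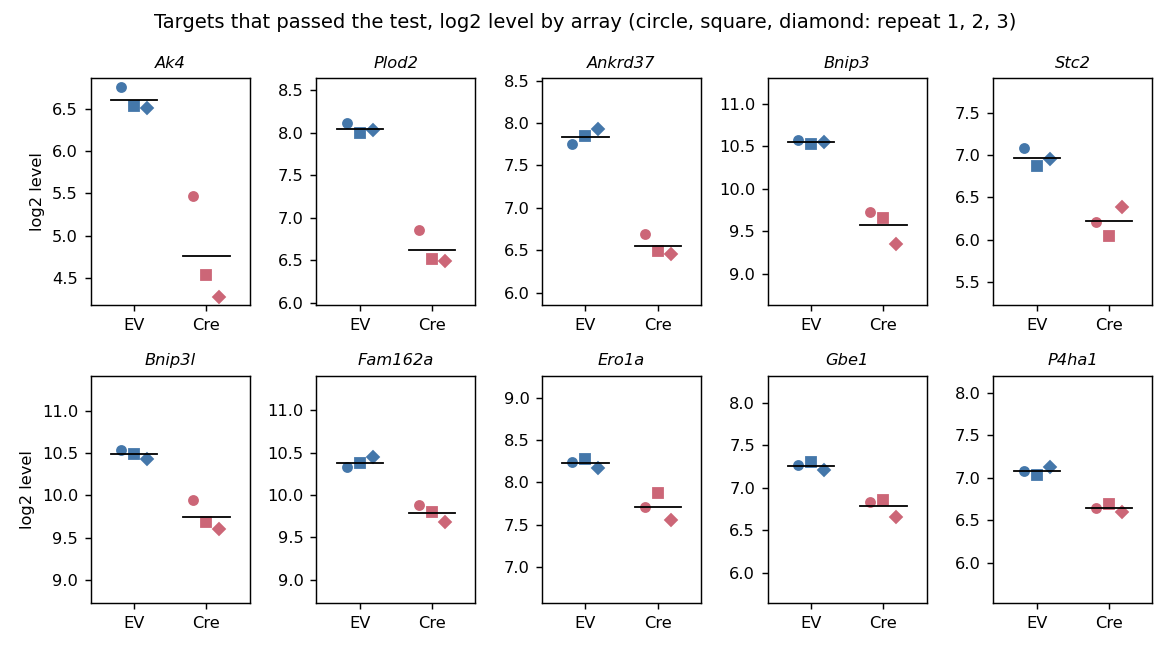
Log2 level on each array (vertical axis, the same span in every panel) of the 10 targets that passed, in order of change, with EV in blue, Cre in red and a bar at the mean of 3 arrays. Every Cre value lies below every EV value, and the Cre arrays of Ak4 spread from 4.28 to 5.47.

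Of the 35 genes 5 were measured by more than 1 probe set (11 in all), and the sets of each gene gave the same sign. For Ak4 the set used (10472923) has numbers next to sets of genes on chromosome 2, while Ak4 lies on chromosome 4. Its other set (10506269), whose neighbours lie on chromosome 4, read 6.25, 6.17 and 6.38 in EV and 5.39, 5.13 and 4.41 in Cre. Its change was smaller, at -1.29 (SE 0.23), 2.45-fold. In a limma fit over all 21467 probe sets with 1 gene symbol its adjusted p was 0.0261, beside 0.0149 for the set used. The sets of Bnip3l likewise gave changes of -0.74 (neighbours on chromosome 12) and -0.69 (its own chromosome 14).

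Both sets of Bnip3 fell alike, by -0.98 on the gene's own chromosome 7 and -0.96 for the set with neighbours on chromosome 14. Higd1a differed by -0.25 and -0.24 and Mif by -0.20, -0.17 and -0.16, none of which passed. With the set on the gene's own chromosome taken throughout, 10 targets fell again. What the sets with neighbours elsewhere detect was not tested.

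**Figure D4:**
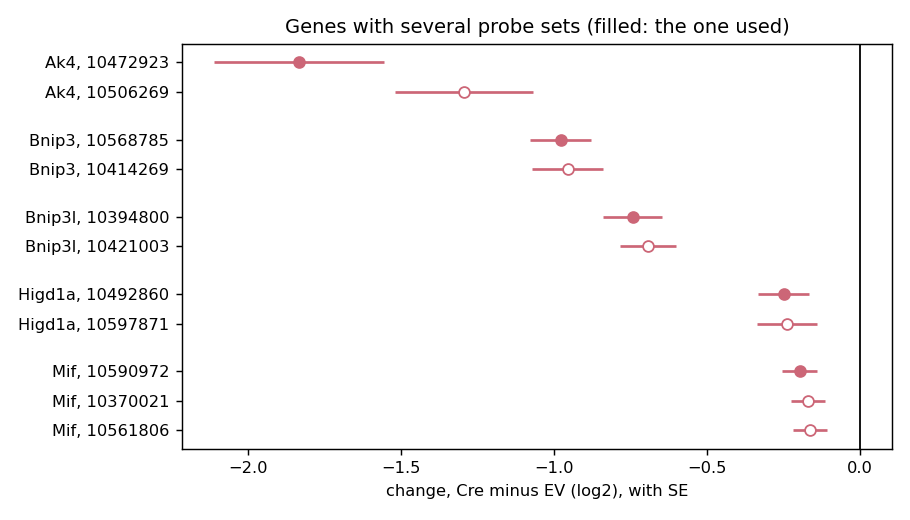
Change, Cre minus EV on the log2 scale with its SE (horizontal axis), of every probe set of the 5 genes with more than 1; filled points are the sets used. The sets of each gene lie on the same side of 0, and those of Ak4 differ most, at -1.83 and -1.29.

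Other genes of the pathway were taken from 3 lists, also chosen with earlier results of these data known, so their counts are a description. Of 18 further components of the HIF machinery 16 were measured, and in limma 0 rose and 0 fell (2 were higher and 0 lower at an unadjusted p below 0.05, beside 7.1% and 9.02% of all genes), with a median of 0.07. With the lowest 50% of genes left out, or with trend and robust settings, 1 rose. The smallest p-values were those of Sirt1, a deacetylase (0.22 (SE 0.068; adjusted p = 0.154)), Ep300, the coactivator p300 (0.19 (SE 0.072; adjusted p = 0.233)), Crebbp, the coactivator CBP (0.13, SE 0.063), and Cops5, a signalosome subunit (0.11, SE 0.063). The elongins Elob and Eloc and the cullin Cul2, which form the ligase with VHL, differed by 0.076, 0.041 and -0.047.

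Of 19 glycolytic targets 16 were measured, of which 12 fell and 0 rose, beside 2.14% and 1.35% of all genes, with a median of -0.49. Leaving out Cre repeat 2, EV repeat 1 or EV repeat 2 lowered that count to 6. Aldoc (-2.01), Slc16a3 (-1.10), Aldoa (-0.89) and Slc2a1 (-0.54) had the smallest p-values.

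A further 29 non-glycolytic targets, of which 27 were measured, did not share the direction. In that list 3 fell and 3 rose, beside 2.14% and 1.35% of all genes, with a median of 0.02. The list was dimmer, with a median level of 5.17 beside 7.02 for the 27 targets. Without the lowest 50% of genes 13 of its 27 genes remained, beside 21 of the 27 targets. Whether low levels hid falls in this list was not tested. The 3 that fell were Car12, a carbonic anhydrase (-0.95 (SE 0.11; adjusted p = 0.00461)), Mxi1, a MAX partner that opposes MYC (-0.47 (SE 0.071; adjusted p = 0.0138)), and the growth factor Tgfb3 (-0.92 (SE 0.17; adjusted p = 0.03)). The 3 that rose were Plin2, a lipid droplet coat protein (0.71 (SE 0.070; adjusted p = 0.00189)), Ddit4 (REDD1), an inhibitor of mTORC1 (0.49 (SE 0.085; adjusted p = 0.0221)), and Pgf, a VEGF family ligand (0.39 (SE 0.081; adjusted p = 0.0442)). Tgfb3 and Pgf were named after their values were seen. The count of falls was 1 without Cre repeat 2, Cre repeat 3 or EV repeat 2, and the count of rises was 1 without Cre repeat 1, 2 or 3 or EV repeat 2 or 3. The chemokine receptor Cxcr4, which holds B cell precursors in the marrow and is hypoxia-induced in other cells, differed by 0.053 (SE 0.066; adjusted p = 0.769).

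**Figure D5:**
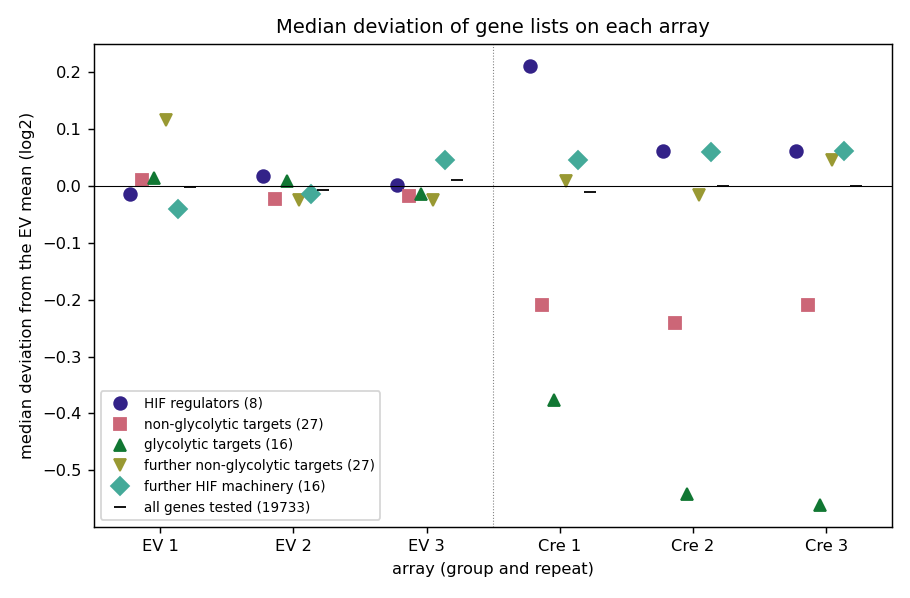
Median deviation from the EV mean (log2, vertical axis) of 5 gene lists and of all genes on each of the 6 arrays. On the Cre arrays the 27 non-glycolytic targets lie between -0.24 and -0.21 and the glycolytic ones between -0.56 and -0.38, while the 8 regulators lie between 0.06 and 0.21.

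Array by array, the targets' median deviation from the EV mean was -0.21, -0.24 and -0.21 in Cre repeats 1, 2 and 3 and between -0.024 and 0.011 in the EV arrays. For the regulators it was 0.21, 0.06 and 0.06 in Cre and between -0.015 and 0.017 in EV. The further machinery reached 0.05 to 0.06 in Cre and -0.04 to 0.04 in EV, so its small positive median is about as large as the spread of the EV arrays.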

How the data were processed

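Total RNA of 6 samples (3 Cre, 3 EV, grouped by title) (Qiagen RNeasy) was hybridised as biotin-labelled cRNA to Affymetrix arrays, per the labels. The deposited values are log2 levels per probe set made by the authors with RMA, per the submitters' processing notes, which name no version. RMA normalization gives the arrays 1 distribution, so each change is relative to the rest of the genes. Detection calls were not used here, and precision is limited by the number of arrays.

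Of 25006 probe sets 21467 had 1 gene symbol in the platform annotation, 1521 several and 2018 none; 21386 were matched to RefSeq genes (GRCm38.p6) for names and chromosomes. The set with the highest mean stood for a gene. Cre minus EV was fitted for 19733 genes with limma 3.58.1 in R 4.3.3 (lmFit, eBayes, no block, no filter), with Benjamini-Hochberg adjustment and a threshold of 0.05. All adjusted p-values in the text come from limma fits over genes, apart from those of the 2 Ak4 probe sets set side by side, which come from a fit over the 21467 sets. Tables and plots used Python 3.11.15, pandas 2.3.3 and matplotlib 3.10.9. The members and lists were chosen with earlier results of these data known, so no test over a list was made. All members are named, with at most 4 genes of each other list by p-value and exceptions marked; Rag1, Rag2, Dntt, Elob, Eloc, Cul2 and Cxcr4 were also named after their values were seen. On simulated data for 19733 genes the fit recovered 47% of genes moved by 0.5 log2 and 89% of those moved by 1 log2, with 6 false calls. The simulation gave both groups the same SD and moved fewer genes than were called in the data, so recovery in the data may differ. Alternatives covered the block, each array left out, normalization, dim genes, variance model, array weights and probe choice.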

Additional observations from a re-analysis of the deposited data

How the results depend on the processing

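The fall of 10 targets gave counts of 7 to 10 with 1 array left out and 9 to 13 under the other settings, and 0 targets rose in any. The repeat numbers do not pair the arrays (correlations of same-numbered deviations 0.009, -0.012 and 0.030, and 1 of 3 Cre arrays closest to its own number). With the repeat number as a replicate block 9 targets fell (P4ha1 lost, adjusted p = 0.0581), 1 further non-glycolytic target rose, and over all genes 157 rose and 268 fell. All-gene counts were 138 to 169 (rises) and 215 to 270 (falls) with 1 array left out, 537 and 758 without the lowest 50% of genes, and 640 and 918 with trend and robust settings. Of the regulators 1 rose (Epas1) with median centring, and 1 fell (Egln1) without the lowest 25% or 50% of genes or with trend and robust settings; the low filters remove Epas1 and Egln3. Of the further machinery 1 rose without the lowest 50% or with trend and robust settings. Counts with 1 array left out were 6 to 11 for glycolytic falls, 1 to 3 for further non-glycolytic falls and 1 to 2 for their rises.

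The targets' median of -0.25 was -0.28 to -0.19 with 1 array left out, -0.22 after quantile normalization again and -0.37 without the lowest 50%. That of the regulators was 0.026 to 0.14 with 1 array left out, and that of the further non-glycolytic targets 0.05 without the lowest 50% and -0.0012 to 0.028 with 1 array left out, below 0 without Cre repeat 1 or 3. The further machinery's was 0.093 after quantile normalization again and 0.054 to 0.075 with 1 array left out. Among the 35 genes, signs turned only for uncalled ones. Vhl was 0.013 after quantile normalization again, 0.0021 with array weights and -0.069 to 0.082 with 1 array left out. The other ranges across 0 with 1 array left out were -0.20 to 0.017 (Plod1), -0.054 to 0.027 (Kdm3a), -0.013 to 0.10 (Car9) and -0.11 to 0.053 (Narf). Causes of these differences were not tested. The filters and omissions leave smaller sets of genes or arrays. The probe choice by chromosome and the class of Egln1 and Egln3 were chosen after seeing the data.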

Other observations

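The spread of the fallen targets lay in the Cre arrays. For all 10 the SD of the 3 Cre arrays was larger than that of the 3 EV arrays, with a median of 0.17 against 0.057. For P4ha1 they were nearly equal (0.0501 against 0.0495). Among all genes tested the Cre SD was the larger in 47.6%. The larger Cre SD was not particular to these 10. It was also seen for Ppp2r1a (0.099 against 0.0072), Rag1 (0.25 against 0.076) and most of the fallen glycolytic targets, with Pfkp and Tpi1 the other way. The 10 genes share the same 6 arrays and are not independent, so this is a description.

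Repeat 3 was the lowest of the Cre arrays for 9 of the 10 fallen targets, Stc2 being the exception with its lowest value in repeat 2, and repeat 1 was the highest for 6. By the median deviation of the 10 from their EV means, however, repeat 2 was the deepest, at -0.65, -0.85 and -0.79 in Cre repeats 1, 2 and 3. Among the 12 glycolytic targets that fell, repeat 1 was the highest for 12 and repeat 3 the lowest for 9. Ppp2r1a itself was highest in repeat 1 and lowest in repeat 3, at -1.94, -2.08 and -2.14 from its EV mean. With 3 arrays the part of residual Ppp2r1a in the depth of these falls was not tested.

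Paralogues in the same step of a pathway did not share their change in every case. Plod2 fell and Plod1 differed by -0.095, Egln1 and Egln3 differed by -0.28 and 0.24, and in the carbonic anhydrases Car12 fell from 5.12 ± 0.17 to 4.17 ± 0.16 (SD, n = 3) while Car9 differed by 0.058. Plod1, Egln3 and Car9 were dim, with EV means of 4.98, 3.54 and 4.41, below the array medians of 5.21 to 5.27. Whether a low level hid a fall of these genes was not tested, nor were the differences between paralogues.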
